A study of Mus musculus with 4 samples.

Results

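Kinetochore, condensin, spindle and centrosome genes encode the machinery that condenses, attaches and separates chromosomes in mitosis. The 75 genes described here were taken by a pattern of gene names, and not by their values, from the 4878 genes of a mouse expression table: centromere and kinetochore (CENP, NDC80, MIS12, SKA), condensin and cohesin, spindle checkpoint, Aurora and Polo kinases with their passengers, anaphase-promoting complex, cytokinesis, augmin, CEP and NEK genes. The study compared mouse embryonic fibroblasts, primary cells cultured from embryos and here used at passages 5 to 8, after transfection by Lipofectamine RNAimax with Si-eIF1A (X+18), an siRNA against eIF1A (2 libraries), or with Si-Negative control (2 libraries). The factor eIF1A binds the small ribosomal subunit and helps it to scan the 5′ UTR for the start codon; its own mRNA was not analysed here, so the depth of the knockdown was not checked. The labels name no strain and no genetic change. The labels do not tie replicates to separate cultures, and p-values therefore measure the spread between these libraries, which may be technical. Bulk MARS-seq, which counts the 3′ ends of polyadenylated RNA, gave 2152331 and 2352111 reads over the genes of the table in knockdown libraries and 2182825 and 2595625 in control libraries.

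In a dividing cell, cyclins A2 and B1 activate CDK1, which starts mitosis. Condensin compacts the chromosomes, cohesin holds the sister copies together, and kinetochores built on centromeres attach them to spindle microtubules that grow from centrosomes and, through augmin, from other microtubules. The spindle checkpoint holds back the anaphase-promoting complex until every kinetochore is attached. That complex, with its activator CDC20, then marks cyclin B and securin for destruction, and separase cuts cohesin. Many of these mRNAs are made mainly in G2 and mitosis in cycling fibroblasts, so in bulk RNA fewer dividing cells and less RNA per dividing cell cannot be told apart.

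Over all 75 genes, reads of the mitotic set were a smaller part of the knockdown libraries. They made up 0.944% and 0.926% of the reads in knockdown libraries, against 1.10% and 1.04% in control libraries. Both knockdown libraries lay below both controls. This sum weighs each gene by its reads, so genes of high count weigh most. Among these, Cenpb, Plk1 and Anapc2 were lower in knockdown libraries and Anapc16 was higher. A smaller sum therefore does not mean that most of the genes fell, and the sum without these genes was not tested. Of the 75 genes, 70 had a mean normalised count of at least 5 and were tested; Cenpw, Ska1, Smc2, Cep295 and Cep350 fell under that filter. Limma with Benjamini-Hochberg adjustment over all 4605 tested genes of the table called 19 of the 70 lower and 4 higher at an adjusted p under 0.05. That is 27.1% lower and 5.71% higher, beside 21.6% lower and 15.9% higher among all genes tested. The share called lower is thus near that of the whole table. The median log2 fold change of the 70 was −0.20, against −0.01 over all genes tested. Fold changes here and below are knockdown over control on the log2(normalised count + 1) scale, with the standard error after each.

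The genes that fell encode mitotic kinases (Plk1, Aurka, Aurkb), the passenger Incenp, cyclin B1 (Ccnb1), checkpoint proteins (Bub1b, Bub3, Mad1l1), the anaphase-promoting complex and its activator (Anapc2, Cdc20), condensin (Ncaph, Ncapd2), centromere and kinetochore proteins (Cenpb, Cenpm, Spc24), augmin (Haus4, Haus8) and centrosomal proteins (Cep131, Cep250). Their falls were 1.55-fold to 2.98-fold, and 4 of the 19 reached 2-fold. The 4 that rose were Mis12, Plk2, Anapc16 and Cenpn. In each of these 23 genes the knockdown and control libraries did not overlap. Over the 70 tested genes, both knockdown libraries lay below both controls in 42.9% and above both in 14.3%, beside 35.5% and 32.4% of all genes tested.

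**Figure D1:**
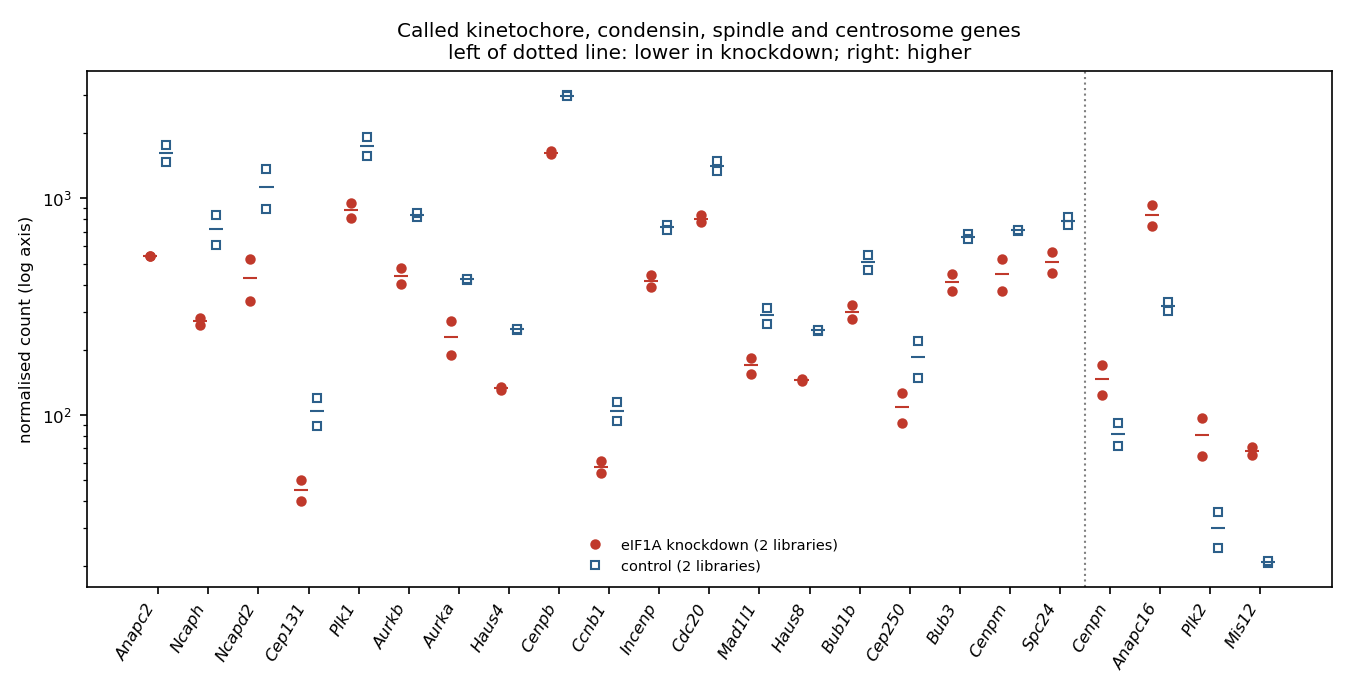
Normalised counts on a log axis of the 23 called genes, with a filled red circle for each of 2 eIF1A knockdown libraries, an open blue square for each of 2 control libraries and a dash at the mean of each. The 19 genes left of the dotted line were lower in knockdown libraries and the 4 right of it higher; no gene has overlapping groups.

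Promoter sequence is shown for the called genes that hold the letters of the CHR, a short element through which the DREAM and MuvB complexes are known to hold G2/M genes silent outside mitosis and to activate them in G2. Of the called genes with a RefSeq promoter these were Ncapd2, Cdc20 and Bub3, which fell, and Anapc16 and Cenpn, which rose. The stretches run from 250 bases before to 30 bases after the RefSeq start (build GRCm38.p6, the assembly called mm10), in the gene's own direction. Capitals mark the CHR letters TTTGAA and CCAAT boxes, the binding letters of NF-Y, on either strand. The positions are chr6:125191557-125191836 (minus strand) for Ncapd2, chr4:118437314-118437593 (minus) for Cdc20, chr7:131560120-131560399 (plus) for Bub3, chr10:60003106-60003385 (minus) for Anapc16 and chr8:116921490-116921769 (plus) for Cenpn.
Ncapd2: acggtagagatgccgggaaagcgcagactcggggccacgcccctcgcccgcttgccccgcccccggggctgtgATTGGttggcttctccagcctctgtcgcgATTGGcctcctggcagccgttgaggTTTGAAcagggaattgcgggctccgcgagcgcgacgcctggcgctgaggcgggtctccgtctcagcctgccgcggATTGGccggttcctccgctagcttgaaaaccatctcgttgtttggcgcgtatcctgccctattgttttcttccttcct
Cdc20: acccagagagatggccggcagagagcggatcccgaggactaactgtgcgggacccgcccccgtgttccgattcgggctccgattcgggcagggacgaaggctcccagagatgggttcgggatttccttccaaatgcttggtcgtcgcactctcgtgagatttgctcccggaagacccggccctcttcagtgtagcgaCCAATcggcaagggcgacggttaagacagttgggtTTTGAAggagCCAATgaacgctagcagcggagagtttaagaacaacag
Bub3: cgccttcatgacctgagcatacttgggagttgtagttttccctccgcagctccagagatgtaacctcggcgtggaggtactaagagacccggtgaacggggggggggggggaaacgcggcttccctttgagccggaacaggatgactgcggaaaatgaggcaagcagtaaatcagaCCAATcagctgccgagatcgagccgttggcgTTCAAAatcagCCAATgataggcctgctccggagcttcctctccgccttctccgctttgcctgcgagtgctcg
Anapc16: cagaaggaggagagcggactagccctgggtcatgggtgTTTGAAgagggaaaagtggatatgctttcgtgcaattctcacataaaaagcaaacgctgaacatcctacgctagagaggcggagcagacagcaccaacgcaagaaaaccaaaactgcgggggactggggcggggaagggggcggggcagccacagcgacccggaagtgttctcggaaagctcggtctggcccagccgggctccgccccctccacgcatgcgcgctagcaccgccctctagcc
Cenpn: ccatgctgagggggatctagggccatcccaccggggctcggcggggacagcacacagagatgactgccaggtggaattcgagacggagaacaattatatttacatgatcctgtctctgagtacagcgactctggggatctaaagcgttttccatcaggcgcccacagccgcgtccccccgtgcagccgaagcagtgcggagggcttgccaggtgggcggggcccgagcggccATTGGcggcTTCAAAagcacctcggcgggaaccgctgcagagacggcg
In Cdc20 the CHR letters begin 18 bases before the start, between a pair of CCAAT boxes. In Bub3 they also lie between a pair of CCAAT boxes, on the other strand as TTCAAA, and begin 43 bases before the start. In Anapc16 the CHR letters begin 212 bases before the start with no CCAAT box in the window.

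The CHR letters were common among these genes and not particular to those that fell. One promoter a gene was read, the most upstream in the table, and 62 of the 70 tested genes had one. TTTGAA on either strand was found in 20 of these 62 (32.3%), in 11.2% of 3831 matched genes of the whole table and in 17.4% of 27025 RefSeq promoters. By call it was found in 3 of 16 genes that fell, 2 of 4 that rose and 15 of 42 that did not pass. CCAAT on either strand was found in 10 of the 16 that fell, in 2 of the 4 that rose and in 17 of the 42 that did not pass, against 39.2% of the matched genes of the table. The related letters TTTAAA were in 12.9% of the 62, against 8.38% of the matched genes of the table and 12.8% of RefSeq promoters. By call they were in 3 of 16 that fell, 1 of 4 that rose and 4 of 42 that did not pass. The E2F-like letters TTTNNCGC were in 16.1% of the 62, against 9.76% and 4.96%. By call these were in 4 of 16, 0 of 4 and 6 of 42. Aurkb, Incenp, Spc24, Ccna2, Smc4, Tpx2, Cep192 and Aurkaip1 are tested genes without an entry.

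The kinases that drive entry into mitosis, and the passenger protein that carries Aurora B, fell together. In this group 4 of 6 tested genes were lower and 1 higher, beside 21.6% and 15.9% of all genes tested. Plk1, the Polo kinase of centrosome maturation and mitotic exit (mm10 chromosome 7, 122159439 to 122169873, plus strand), had 953 and 815 normalised counts in knockdown libraries against 1918 and 1566 in controls. Both knockdown values are below either control, a log2 fold change of −0.97 ± 0.21 (limma, adjusted p = 0.00148). Aurkb, the kinase of the passenger complex that corrects wrong kinetochore attachments, had 479 and 401 in knockdown libraries against 825 and 856 in controls (−0.94 ± 0.21, limma, adjusted p = 0.00181). Aurka, which builds the spindle poles, had 270.4 and 189.5 in knockdown libraries against 420.2 and 426 in controls (−0.90 ± 0.23, limma, adjusted p = 0.00513). Incenp, the scaffold that binds Aurora B, had 442 and 391 in knockdown libraries against 754 and 717 in controls (−0.82 ± 0.21, limma, adjusted p = 0.00469). Without knockdown replicate 2 the calls of Aurka and Incenp were lost (adjusted p = 0.117 and 0.0546). An exon of the predicted gene Gm44985 overlaps the last 1000 bases of Plk1 on the opposite strand, and no source used here says whether reads were counted by strand.

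A further passenger and a further Polo kinase did not follow them. Birc5, which encodes survivin of the same passenger complex, had 384 and 245 normalised counts in knockdown libraries against 279.5 and 267 in controls, so the groups overlapped (0.17 ± 0.24, limma, adjusted p = 0.627). Plk2, a Polo kinase of centriole duplication and of stress responses and not of mitotic entry, had 64.6 and 96.5 in knockdown libraries against 35.4 and 24.3 in controls, and rose 2.63-fold (1.40 ± 0.35, limma, adjusted p = 0.00403). Without knockdown replicate 2 the call of Plk2 was lost (adjusted p = 0.0905). The log2 ratio of Plk2 to Plk1 inside each library, which no scaling of a library can change, was −3.88 and −3.08 in knockdown libraries against −5.76 and −6.01 in controls. This ratio was chosen after the values were seen, and it shows unequal change only.

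Of the cyclins that switch on CDK1, Ccnb1 fell and Ccna2 did not pass. Ccnb1, cyclin B1, had 54.1 and 61.1 normalised counts in knockdown libraries against 114 and 94.1 in controls (−0.84 ± 0.29, limma, adjusted p = 0.0289). This is one of the less stable calls: it was lost without knockdown replicate 1 (0.154), knockdown replicate 2 (0.0754) or control replicate 1 (0.130). Ccna2, cyclin A2, had 144 and 303 in knockdown libraries against 201 and 224 in controls (−0.02 ± 0.29, limma, adjusted p = 0.970). Its knockdown libraries lie on either side of the controls. The kinase subunit itself, Cdk1, was not analysed here.

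Centromere and kinetochore genes went both ways, with 3 of 15 tested genes lower, 2 higher and 10 not passing. Over all genes tested 21.6% were lower and 15.9% higher, so these counts are near the background. Cenpb, which binds a short repeat in centromere DNA, had 1655 and 1603 normalised counts in knockdown libraries against 3012 and 2958 in controls (−0.87 ± 0.21, limma, adjusted p = 0.00306). An exon of Spef1 overlaps its last 1000 bases on the same strand, so its count is uncertain to that extent. Spc24, a subunit of the NDC80 complex that grips microtubules, had 567 and 454 in knockdown libraries against 754 and 825 in controls (−0.63 ± 0.21, limma, adjusted p = 0.0261). Its partners in that complex did not pass, with Spc25 at −0.28 ± 0.30 and Ndc80 at 0.07 ± 0.47. Cenpm, a subunit of the constitutive centromere network, had 526 and 373 in knockdown libraries against 709.6 and 717 in controls (−0.69 ± 0.22, limma, adjusted p = 0.0211). Without knockdown replicate 2 the calls of Cenpm (0.297) and Spc24 (0.250) were lost, and that of Spc24 also without control replicate 2 (0.0666).

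Mis12, a subunit of the complex that joins the centromere to the NDC80 complex, rose 3.17-fold, the largest rise among the 70 genes. Mis12 (chromosome 11, 71019611 to 71027371, plus strand) had 65.4 and 71.3 normalised counts in knockdown libraries against 20.7 and 21.1 in controls, which are 81 and 105 reads against 21 and 26 (1.66 ± 0.35, limma, adjusted p = 0.00113). Cenpn, which reads the CENP-A nucleosome of the centromere, had 169.5 and 123 in knockdown libraries against 71.8 and 91.7 in controls (0.82 ± 0.28, limma, adjusted p = 0.0257). Its call was lost without knockdown replicate 1 (0.273) and without control replicate 1 (0.0954). Cenpe, a kinetochore motor, was 1 of the genes that the depth limits: its 6 and 8 reads in knockdown libraries and 8 and 30 in controls gave −1.29 ± 0.66 and an adjusted p of 0.137 by limma, and 0.0193 without control replicate 1. The 2 kinetochore genes under the filter, Cenpw and Ska1, had 7 and 10 reads and 6 and 12 reads in knockdown libraries against 2 and 5 reads and 2 and 3 reads in controls. After scaling by library, their summed reads stood in knockdown to control ratios of 2.01 (95% counting interval 0.794 to 5.74) for Cenpw and 2.99 (1.07 to 10.3) for Ska1, and these exact Clopper-Pearson intervals cover counting error only.

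In the spindle checkpoint 3 of 6 tested genes fell and none rose, beside 21.6% lower and 15.9% higher over all genes tested. Bub1b, which encodes the BubR1 inhibitor of CDC20, had 278 and 320.6 normalised counts in knockdown libraries against 545 and 467 in controls (−0.75 ± 0.22, limma, adjusted p = 0.0108). Bub3, its partner at the kinetochore, had 446 and 372 in knockdown libraries against 684 and 648 in controls (−0.71 ± 0.21, limma, adjusted p = 0.0137). Mad1l1, the kinetochore receptor of MAD2, had 155 and 183 in knockdown libraries against 313 and 264 in controls (−0.77 ± 0.24, limma, adjusted p = 0.0152). Each of the 3 calls was lost when a single library was left out: without knockdown replicate 1 the adjusted p was 0.0968 for Bub1b and 0.130 for Mad1l1, without control replicate 1 it was 0.0664 for Mad1l1, and without knockdown replicate 2 it was 0.150 for Bub3. Mad2l1, which encodes MAD2 itself, had 14.5 and 19.0 in knockdown libraries against 12.8 and 13.0 in controls and did not pass (0.34 ± 0.50). Mad2l2, named alike but a subunit of a translesion DNA polymerase, had 908 and 634 in knockdown libraries against 973 and 833 in controls and did not pass either (−0.25 ± 0.23). Mad2l2 is counted among the 6 by its name. The checkpoint kinase gene Ttk had 6 to 19 reads a library and overlapping groups.

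Subunits of the anaphase-promoting complex moved in opposite directions. Anapc2, the cullin subunit of the ligase core (chromosome 2, 25272478 to 25285915, plus strand), had 541 normalised counts in both knockdown libraries against 1769 and 1476 in controls, a 2.98-fold fall (−1.58 ± 0.21, limma, adjusted p = 1.18e-05). Anapc16, a small subunit of the complex (chromosome 10, 59987409 to 60003135, minus strand), had 929 and 746 in knockdown libraries against 303 and 331 in controls, a 2.62-fold rise (1.39 ± 0.22, limma, adjusted p = 6.3e-05). Inside each library the log2 ratio of Anapc16 to Anapc2 was 0.78 and 0.46 in knockdown libraries against −2.54 and −2.16 in controls, a difference of 2.97 that no scaling of a library can change. The pair was chosen after its values were seen, and with 2 libraries a group an exact two-sided permutation test of this single value cannot go below 0.333.

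Cdc20, the mitotic activator of the complex, had 836 and 776 normalised counts in knockdown libraries against 1489 and 1339.9 in controls (−0.81 ± 0.21, limma, adjusted p = 0.00473). An exon of Elovl1 lies on the opposite strand within its last 1000 bases. Of the other subunits, Anapc7 had 362 and 435 in knockdown libraries against 498 and 577 in controls and did not pass (−0.43 ± 0.22, limma, adjusted p = 0.128). Anapc11, the RING subunit that pairs with Anapc2, had 14 to 22 reads a library and overlapping groups, and Anapc13 overlapped too. Espl1, which encodes separase, had 305 and 293 in knockdown libraries against 317 and 239 in controls (0.12 ± 0.23, limma, adjusted p = 0.726). In all, 2 of 7 tested genes of this group fell and 1 rose, beside 21.6% and 15.9% of all genes tested.

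Condensin had 2 of 7 tested genes lower, beside 21.6% of all genes tested. Both are subunits of condensin I, the form that reaches chromosomes once the nuclear envelope has broken down. Ncaph, its kleisin, had 259 and 281 normalised counts in knockdown libraries against 836 and 608 in controls, a 2.63-fold fall (−1.40 ± 0.22, limma, adjusted p = 8.76e-05). Ncapd2, a HEAT-repeat subunit, had 526 and 336 in knockdown libraries against 1371 and 894 in controls (−1.40 ± 0.25, limma, adjusted p = 2.62e-04). In both genes the lower of the controls lies well above the higher knockdown library. Ncapg, the remaining subunit of condensin I, overlapped between groups (−0.34 ± 0.42).

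The matching subunits of condensin II, the nuclear form, did not pass. Ncaph2 had 263 and 224 normalised counts in knockdown libraries against 255 and 311 in controls (−0.21 ± 0.23), Ncapd3 changed by −0.33 ± 0.31, and Ncapg2 had a single read in knockdown replicate 1. The summed reads of Ncapg2 gave a knockdown to control ratio of 0.732 (95% counting interval 0.340 to 1.56). Summed over 3 subunits each, the log2 ratio of condensin I to condensin II was 1.35 and 1.13 in knockdown libraries against 2.79 and 1.93 in controls. The groups do not overlap, but this sum was chosen after the values were seen, and a difference between the forms was not tested. The shared ATPase subunits were thinly covered: Smc4 had 27 and 34 reads in knockdown libraries against 6 and 48 in controls, and was called higher without control replicate 2 (limma, adjusted p = 0.0137). Smc2, under the filter, had 2 and 1 reads in knockdown libraries against 1 and 7 in controls, a ratio of 0.311 (95% counting interval 0.0531 to 1.30).

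No cohesin or SMC5/6 gene was called. Smc1a, a cohesin ATPase, had 122 and 270.3 normalised counts in knockdown libraries against 183 and 158 in controls (0.09 ± 0.30, limma, adjusted p = 0.843), and its knockdown libraries lie on either side of both controls. Smc3, its partner in the ring, changed by −0.33 ± 0.43, and Smc5, of the repair complex, by 0.04 ± 0.78. None of the 3 had non-overlapping groups. Smc5 had 7 reads in each knockdown library and 3 and 10 in controls, a ratio of 0.893 (95% counting interval 0.389 to 2.06).

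None of the 6 spindle assembly and cytokinesis genes passed, although 5 of 6 had negative fold changes, beside 2328 of 4605 over all genes tested. The group median was −0.31, beside −0.01 over all genes, and at equal library totals 0.03, beside 0.34. That scaling moves both medians nearly alike. Racgap1, which with its kinesin partner bundles the central spindle, had 892 and 835 normalised counts in knockdown libraries against 1325 and 1028 in controls (−0.43 ± 0.21, limma, adjusted p = 0.120). The 2 groups did not overlap, and without control replicate 2 the gene was called lower (adjusted p = 0.0467). Prc1, which crosslinks midzone microtubules, changed by −0.47 ± 0.25 and Tpx2, the activator of Aurora A, by −0.43 ± 0.31. Anln and Nusap1 overlapped between groups. Ect2, the exchange factor that starts the cleavage furrow, was the member with a positive value (0.53 ± 0.36, limma, adjusted p = 0.271).

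Augmin, the complex that seeds microtubules from the side of existing ones, had 2 of 4 tested subunits lower, beside 21.6% of all genes tested. Haus4 had 131 and 135 normalised counts in knockdown libraries against 248 and 249 in controls (−0.90 ± 0.24, limma, adjusted p = 0.00553). Haus8, which docks augmin on microtubules, had 143 and 146 in knockdown libraries against 245 and 247 in controls (−0.76 ± 0.23, limma, adjusted p = 0.0151). In both genes the libraries of a group lie within a few counts of each other, yet the call of Haus8 was lost without knockdown replicate 1 (0.0819) or 2 (0.0733). Haus5 had 195 and 213 in knockdown libraries against 282 and 292 in controls and did not pass (−0.50 ± 0.23, limma, adjusted p = 0.0924). Its annotation overlaps the predicted gene Gm21982 and it has sequence copies, so its count is uncertain. Haus2 had 6 to 27 reads a library and overlapping groups.

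Of the centrosomal CEP genes, 9 of 11 tested had positive fold changes, none of which passed. Over all genes tested 2277 of 4605 had positive fold changes. The median was 0.25, with 0.60 without knockdown replicate 1 and 0.04 without control replicate 2, and a difference from the other groups was not tested. The 2 of 11 that passed fell, beside 21.6% lower over all genes tested. Cep131, a protein of centriolar satellites, had 50.05 and 40.1 normalised counts in knockdown libraries against 119 and 89.3 in controls, a 2.27-fold fall (−1.19 ± 0.31, limma, adjusted p = 0.00502). Cep250, the linker that ties the 2 centrosomes together, had 92.0 and 126 in knockdown libraries against 220.5 and 149 in controls (−0.74 ± 0.27, limma, adjusted p = 0.0398). The call of Cep250 was lost under 10 of 18 other settings, among them without knockdown replicate 1 (0.286) and without control replicate 1 (0.270). Cep55, a midbody protein of abscission, had 31.5 and 35.3 in knockdown libraries against 12.8 and 24.3 in controls and did not pass (0.88 ± 0.44, limma, adjusted p = 0.125), and it was called higher without control replicate 2 (0.0294). Nek2, the kinase that splits the centrosomes, had 164 and 162 in knockdown libraries against 180.1 and 166 in controls (−0.08 ± 0.24, limma, adjusted p = 0.825). Nek7, a kinase of spindle assembly and of the inflammasome, had 6 and 21 reads in knockdown libraries against 2 and 8 in controls, a ratio of 2.24 (95% counting interval 1.05 to 5.18, counting error only). Its groups overlapped and it did not pass (1.00 ± 0.79, limma, adjusted p = 0.344). Cep57 had 15 and 22 reads in knockdown libraries against 3 and 17 in controls, a ratio of 1.53 (0.868 to 2.79), and was called higher without control replicate 2 (limma, adjusted p = 0.0352). Under the filter, Cep295 (0.829, 0.222 to 3.10) and Cep350 (1.30, 0.461 to 3.96) had 1 to 6 reads a library.

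Aurkaip1 was caught by its name and is known as a protein of the mitochondrial small ribosomal subunit. It stays in the counts and summed reads given for the whole set. It had 1330.3 and 840.3 normalised counts in knockdown libraries against 588 and 829 in controls and did not pass (0.60 ± 0.25, limma, adjusted p = 0.0621). Under 8 of 18 other settings it was called higher, among them without knockdown replicate 2 (0.00992) and without control replicate 2 (0.00441).

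**Figure D2:**
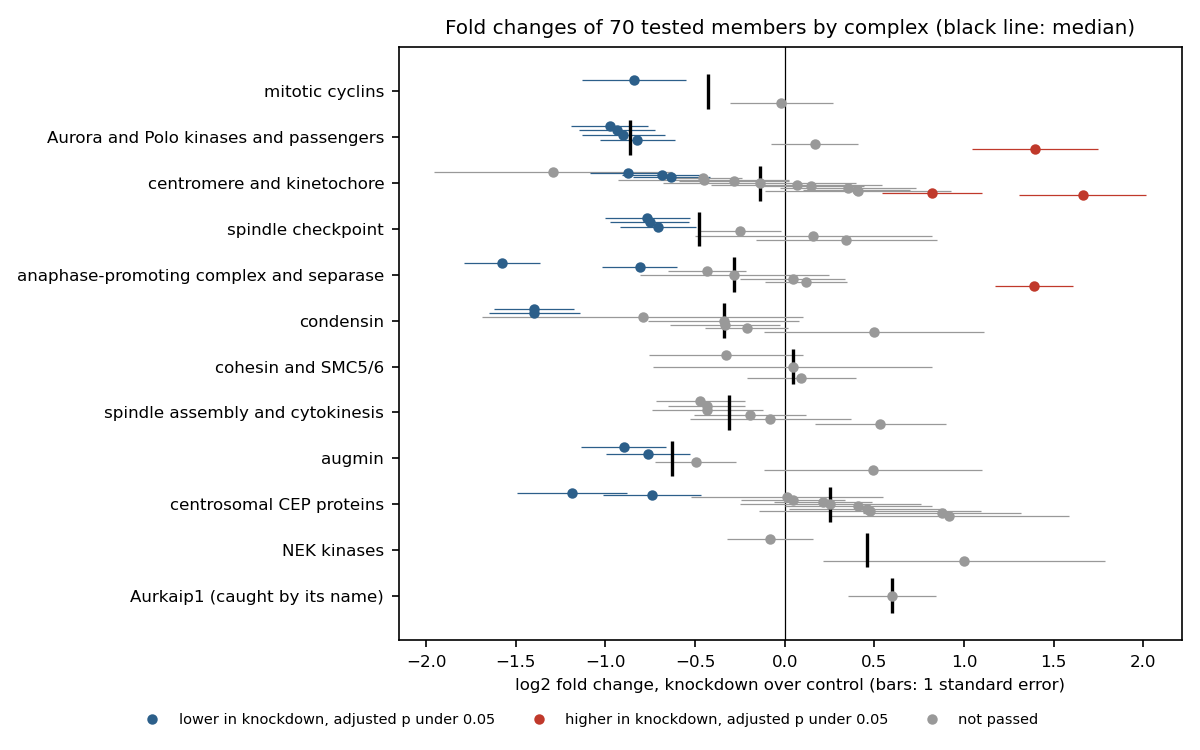
Log2 fold change of knockdown over control for each of the 70 tested genes, by complex, with a bar of 1 standard error and a black line at the group median. Blue points passed as lower and red as higher; the Aurora and Polo group has 4 blue points near −0.9, whereas the CEP group has 9 of 11 points at or above 0 and none of them called.

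2 measured properties went with the calls. The first was depth: the median mean value was 537 normalised counts for the 19 genes that fell and 34.1 for the 47 that did not pass, and the median standard error was 0.22 against 0.38. A missed threshold among the thinly covered genes therefore does not show that they did not differ. The 4 genes that rose had a median mean value of 84.6. Across the 70 genes the fold change itself also went with depth (Pearson r −0.45 between log2 mean value and log2 fold change). The part of depth in the direction of change was not tested. The second was base composition: the longest coding transcripts of the 19 had a median GC content of 55.2%, against 45.4% for the 47 that did not pass and 51.4% over all genes tested. This is not particular to the mitotic genes. In the whole table the median was 55.9% for the genes called lower, 50.2% for those that did not pass and 48.8% for those called higher. Among the 24 of the 70 genes richest in GC (52.5% to 61.4%) 14 fell and 0 rose (median −0.71). Among the 23 poorest (38.7% to 44.4%) 2 fell (median 0.07). Across all 4600 genes with a value the fold change went with GC content in the same direction (Pearson r −0.42, against −0.38 across the 70), a description across genes of the same 4 libraries.

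With the trend on GC content removed from all genes, 10 of the 70 were lower and 5 higher, and 9 of the 19 kept their call. In this setting 660 of all 4600 genes were lower and 702 higher. The share of the 70 called lower was thus near that of the whole table. Those that lost it were Incenp (0.0641), Cenpb (0.105), Cenpm (0.330), Spc24 (0.106), Mad1l1 (0.336), Cdc20 (0.109), Haus4 (0.0752), Haus8 (0.579), Cep131 (0.323, with a fall of 1.32-fold instead of 2.27-fold) and Cep250 (0.545), and among the genes that rose Cenpn (0.202). In this setting Prc1 was called lower (0.0103) and Aurkaip1 (0.00377) and Cep170b (0.0371) higher, and the median of the 70 was −0.32. The part of GC content in these results was not tested further. Length of the 5′ UTR, over which the small ribosomal subunit scans, had a median of 191 bases in the 19 genes that fell, 186 in those that did not pass and 184 over all genes tested.

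**Figure D3:**
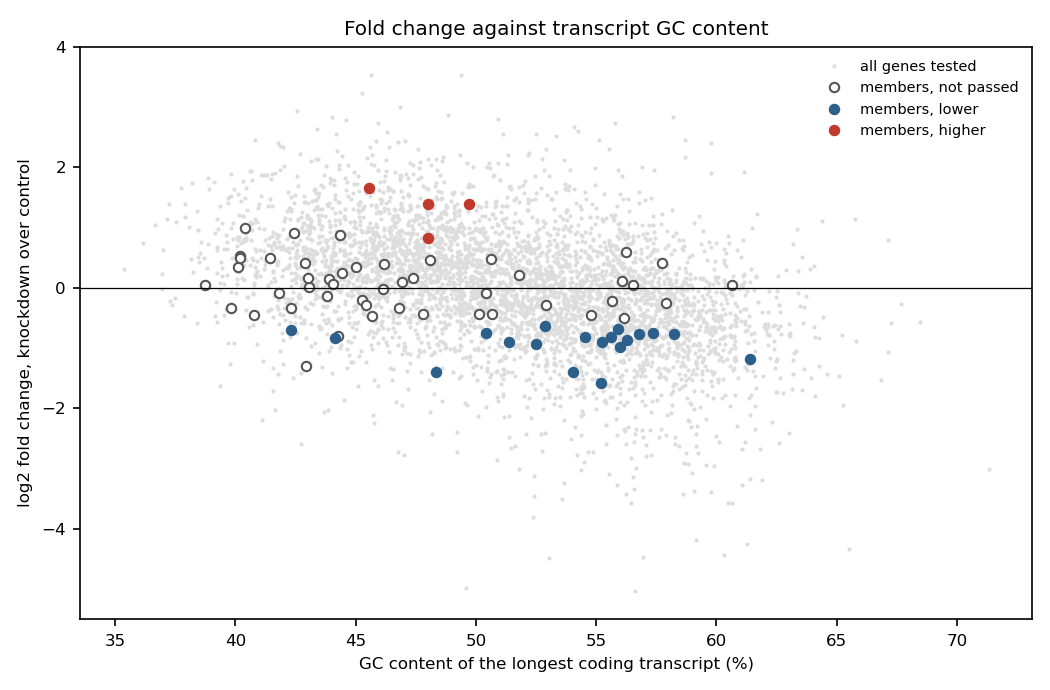
Log2 fold change of knockdown over control against GC content of the longest coding transcript, for all tested genes (grey) and for the 70 members (circles). The 19 members called lower (blue) lie mostly to the right, with a median GC content of 55.2%, and the 4 called higher (red) have a median of 48.0%.

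Scaling changed the split of calls. At equal library totals the median over all genes was 0.34 instead of −0.01, and that of the 70 was 0.15 instead of −0.20. Of the 70, 7 were lower and 7 higher, beside 603 lower and 1299 higher of all 4605 genes tested. Equal totals move every gene of a library by nearly the same amount. The gap between these 2 medians could therefore hardly change, and its size there is no further check. Under quantile normalisation 11 of the 70 were lower and 5 higher, beside 806 lower and 808 higher of all 4605 genes tested. Aurkb, Plk1, Anapc2, Ncapd2 and Ncaph were lower, and Mis12 and Anapc16 higher, under all 18 other settings tried. The remaining 14 lowered and 2 raised genes lost their call under at least 1 of them, and none of the 23 changed sign. Other filters, replicate blocks, no variance trend and an adjusted p of 0.1 leave each fold change as in the main fit. No sign could change under those, and at an adjusted p of 0.1 no call could be lost.

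**Figure D4:**
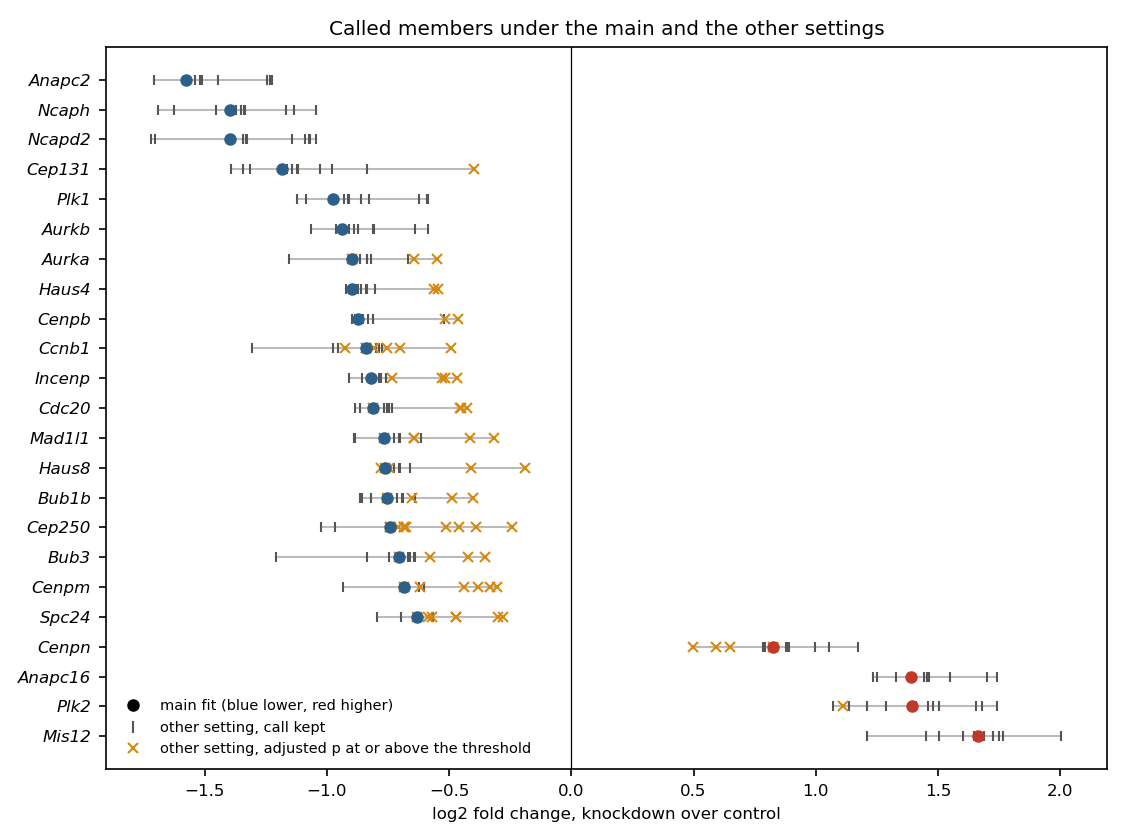
Log2 fold change of the 23 called genes in the main fit (blue circles lower, red circles higher in knockdown) and under 18 other settings, where a grey bar marks a kept call and an orange cross a lost one. No point crosses 0, and Anapc2, Ncaph, Ncapd2, Plk1, Aurkb, Anapc16 and Mis12 have no cross.

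Other mitotic genes, listed from general knowledge but with earlier results of these data known, were counted in the same fit. These lists are therefore no independent check. Mitotic kinesins had 5 of 8 tested genes lower and 0 higher (median −0.80), beside 21.6% lower and 15.9% higher over all genes tested. The 5 became 3 at equal library totals, under DESeq2 and without either knockdown library. Kif2c, which takes microtubules apart at kinetochores, had 411 and 399 normalised counts in knockdown libraries against 865 and 792 in controls (−1.03 ± 0.21, limma, adjusted p = 7.6e-04). Kif20a, a motor of cytokinesis, had 386 and 361 in knockdown libraries against 724 and 719.9 in controls (−0.95 ± 0.21). Kif22, which pushes chromosome arms outward, had 496 and 396 in knockdown libraries against 858 and 861 in controls (−0.95 ± 0.21). In these 3 genes the groups lie well apart. Kif18b had 235 and 239 in knockdown libraries against 399.6 and 344 in controls (−0.64 ± 0.22), and its call was lost without knockdown replicate 1 (0.125), knockdown replicate 2 (0.116) or control replicate 1 (0.115). Kif20b, thinly covered, had 7 and 9 reads in knockdown libraries against 17 and 30 in controls (−1.62 ± 0.56, limma, adjusted p = 0.0300), a call lost without knockdown replicate 1 (0.101), knockdown replicate 2 (0.0791) or control replicate 2 (0.140).

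Regulators of cyclin and CDK1 had 2 of 14 lower and 1 higher, beside 21.6% and 15.9% of all genes tested. Ccnb2, cyclin B2, had 304 and 209.9 normalised counts in knockdown libraries against 686 and 739 in controls (−1.49 ± 0.23). Ccnf, a mitotic F-box protein, had 216 and 187 in knockdown libraries against 504 and 433 in controls (−1.21 ± 0.22). Cdc25a, a phosphatase that activates CDKs, had 128 and 139 in knockdown libraries against 70.9 and 69.0 in controls (0.92 ± 0.27). Both cyclin genes kept their calls without any single library, while that of Cdc25a was lost without knockdown replicate 1 (0.0510) or 2 (0.101).

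Other kinetochore, passenger and cohesion genes had 4 of 22 lower and 1 higher, beside 21.6% and 15.9% of all genes tested. The lower count is near that share and the higher count below it. Some of the lower calls did not hold when single libraries were left out. Numa1, which focuses spindle poles, had 107 and 96.5 normalised counts in knockdown libraries against 350.4 and 204 in controls (−1.39 ± 0.27, limma, adjusted p = 5.36e-04). Cdca3 had 763 and 524 in knockdown libraries against 1243 and 1221 in controls (−0.96 ± 0.22), a call lost without knockdown replicate 2 (0.0651). Spag5, a spindle protein, had 176 and 171 in knockdown libraries against 254 and 463 in controls (−0.98 ± 0.26), a call lost without control replicate 2 (0.119). Trip13, the ATPase that takes the MAD2 complex apart, rose, with 98.5 and 109 in knockdown libraries against 36.4 and 49.5 in controls (1.26 ± 0.31), a call lost with the GC trend removed (0.0608).

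Among other centrosome genes 1 of 9 fell and 1 rose, beside 21.6% and 15.9% of all genes tested. Each call was lost when single libraries were left out. Tubg1, gamma-tubulin, had 1430.4 and 1172 normalised counts in knockdown libraries against 2184 and 1791 in controls (−0.61 ± 0.22), a call lost without knockdown replicate 2 (0.246) or control replicate 1 (0.181). Tubgcp3, of the gamma-tubulin complex, had 169.5 and 159.6 in knockdown libraries against 70.9 and 122 in controls (0.82 ± 0.28), a call lost without knockdown replicate 1 (0.114), knockdown replicate 2 (0.0763) or control replicate 1 (0.276). The 1 tested gene of other anaphase-promoting and ubiquitin genes did not pass.

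Genes of DNA replication, active a phase earlier, had 12 of 40 lower and 3 higher, beside 21.6% and 15.9% of all genes tested. At equal library totals 7 were lower and 6 higher, and by limma without the variance trend 6 were lower and 1 higher. Without single libraries 8 to 12 were lower and 0 (without knockdown replicate 1) to 5 (without control replicate 2) higher; without knockdown replicate 2 or control replicate 1 the higher count was 1. The 4 of smallest p fell. Pold1, a DNA polymerase, had 535 and 591 normalised counts in knockdown libraries against 1533 and 1059 in controls (−1.18 ± 0.22), a call lost with the GC trend removed (0.160). Mcm6, of the replicative helicase, had 519.9 and 518 in knockdown libraries against 1373 and 902 in controls (−1.10 ± 0.23). Mcm5, of the same helicase, had 1804 and 1568 in knockdown libraries against 3573 and 3215 in controls (−1.01 ± 0.22). These groups do not overlap. Lig1, the replicative ligase, had 539 and 579 in knockdown libraries against 1079.6 and 1061 in controls (−0.94 ± 0.21). Rfc4, a clamp loader subunit named after its values were seen, rose, with 88.8 and 61.1 in knockdown libraries against 25.6 and 22.7 in controls (1.57 ± 0.35, limma, adjusted p = 0.00171), a call lost without knockdown replicate 1 (0.0542).

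Of 11 markers of fibroblasts, 3 were in the table (Vim, Fn1 and S100a4), with a summed 9879 and 12562 normalised counts in knockdown libraries against 23010.2 and 17548 in controls. The other fibroblast markers, and all those listed for leukocytes, endothelium and epithelium, were not analysed here. Of neural markers, Map2 and Nes summed to 132 and 151 in knockdown libraries against 238 and 245 in controls. Their part in the falls of mitotic genes was not tested.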

How the data were processed

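The 4 mouse embryonic fibroblast libraries (2 eIF1A knockdown, 2 negative control) were grouped by sample title, and table columns were matched to samples by name. The authors deposited normalised counts, read here as a signal, from oligo(dT)-captured RNA sequenced by bulk MARS-seq per the labels' protocols, and their scaling factors are not stated. Tools named without roles, per the submitters' processing notes, are STAR, HTSeq, DESeq2, cutadapt 1.8.3 and bcl2fastq 2.17.1.14, with build mm10. All values (100%) were whole multiples of 1 read within 0.01 read, so the reads could be recovered; no gene was at 0 in any library. No library repeated another within sampling noise (a chi-square statistic over its degrees of freedom of 14.2 for knockdown and 17.4 for control), which does not show separate cultures.

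Groups were compared by limma 3.58.1 (R 4.3.3) on log2(value + 1), with the prior variance following the mean and no block, over genes of mean value at least 5 (4605 tested, 273 under the filter), Benjamini-Hochberg adjustment and a threshold of 0.05; it was tested on simulated data. On recovered reads edgeR 4.0.16 called 807 genes higher and 909 lower, and DESeq2 1.42.0 called 620 and 828. Other settings were a pseudocount of 0.5 or 5, a mean of at least 20 or no filter, 3 other scalings, a replicate block (plain and crossed), no trend, a loess trend (span 0.5) on transcript GC content removed, each library left out, and an adjusted p of 0.1. Counting intervals are exact at 95%. Annotation was GENCODE M21 (all 75 genes matched; 132 table symbols matched through an older name). Overlaps were sought in the last 1000 bases (11 genes on the opposite and 2 on the same strand) and copies of the last 500 bases with BLAST+ 2.17.0 (95% identity over 50 bases; 6 genes, none of them called). Promoter sequences are RefSeq's (GRCm38.p6), with 65 of 75 genes matched by symbol.

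Every called gene of the 75 is named, and promoters are printed for called genes with CHR letters. Values in every library are given, per complex, for up to 3 called genes of smallest p and the gene of highest mean, for further fixed mitotic regulators, and for up to 4 called genes of smallest p per related list; others with values were chosen after those were seen. The members and lists were chosen with earlier results of these data known.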

Additional observations from a re-analysis of the deposited data

How the results depend on the processing

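The counts of genes called depend on scaling, trend and single libraries. At equal library totals 1299 genes of the table were higher and 603 lower, and of the 70 mitotic genes 7 were higher and 7 lower, with a median of 0.15. Lower genes of the table numbered 655 without the trend, 660 with the GC trend removed and 806 under quantile normalisation. Lower mitotic genes numbered 9, 10 and 11 in these settings. The median of the mitotic genes was −0.33 at a mean of at least 20 and −0.32 with the GC trend removed. Leaving out each library in turn gave 442 (without knockdown replicate 2) to 758 higher and 716 to 988 lower genes in the table, 3 to 8 higher (8 without control replicate 2) and 12 to 19 lower mitotic genes (12 without knockdown replicate 2), and medians of −0.37 (without knockdown replicate 2) to −0.12. The cause of these shifts was not tested. With the replicate number as a block, 641 genes of the table were higher and 918 lower, and 4 mitotic genes were higher and 17 lower; Ccnb1 (0.0514) and Cep250 (0.0578) missed the threshold. The numbers are only shared labels (correlation of same-numbered deviations −0.129 over 4605 genes). A crossed block, added after seeing the data, gave 891 higher and 1154 lower genes. Counts over the table and over the mitotic genes stayed within 1.5 times under the other settings; those of the related lists, often of 1 to 5 genes, moved further under several. Among the thinly covered genes, 11 of the 70 had 10 or fewer reads in some library, and depth limits what can be said of them.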
